A study of Rattus norvegicus with 19 samples.

Results

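Cyclin D1 (Ccnd1) and 7 other regulators of entry into the cell cycle were followed array by array in rat liver after perinatal exposure to DE-71, a commercial pentabromodiphenyl ether flame retardant. The genes were selected on measured values of these arrays, because Ccnd1 was lower at the top dose in the comparisons of 50 mg/kg with vehicle and with 15 mg/kg. The members were all probe sets whose platform symbol is Ccnd1, Ccnd2, Ccnd3, Cdk4, Ccne1, Cdkn1a, Cdkn1b or Myc. These were 8 of 14217 genes and 12 of 31042 probe sets. Ccnd1 had 3 probe sets, Cdkn1a and Cdkn1b had 2 each, and the other genes had 1 each. Members' values at 50 mg/kg against vehicle and against 15 mg/kg are therefore given as a description with no p-value.

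D-type cyclins bind the kinases CDK4 and CDK6, and the active kinase phosphorylates the retinoblastoma protein, which then releases E2F transcription factors. Cyclin E with CDK2 completes that phosphorylation, and the inhibitors p21 (Cdkn1a) and p27 (Cdkn1b) restrain the kinases. In hepatocytes cyclin D1 is the D-type cyclin best known for its response to growth factors, and MYC is a transcription factor of cell growth that is induced early in liver regeneration.

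Wistar Han rat dams (Crl:WI(Han), aged 11 to 12 weeks) received corn oil alone or DE-71 in corn oil by gavage at 0.1, 15 or 50 mg/kg per day, from gestation day 6 to postnatal day 4. The formulations held 0.02, 3 and 10 mg/mL, given at 5 mL/kg, and no other agent or allele is named for any group. RNA of the left lateral liver lobe was read on Affymetrix Rat230_2 arrays, with 5 vehicle, 5, 4 and 5 arrays in order of dose, and the deposited values are log2 signals. The 15 mg/kg arrays are numbered as replicates 2 to 5. The labels do not say whether the sampled livers are of pups or of dams, nor whether arrays of a group come from separate litters. The p-values thus speak only of variation among these arrays, which may be technical. The labels give the sex as female, while the Y-linked transcript Uty read 9.46 to 10.03 on all 19 arrays and Xist 3.88 to 4.29. These readings are those of males, and so go against both the sex label and dams as the source. Albumin (Alb, 15.01 to 15.06) and alpha-fetoprotein (Afp, 14.47 to 14.70) were high on all 19 arrays. In whole liver, fewer cells of a type and less RNA per cell cannot be told apart.

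Several arrays stood apart. Vehicle replicate 2 and 0.1 mg/kg replicate 2 differed by more than 2-fold in 1 of 31042 probe sets, against 78 to 1967 probe sets in the other 170 pairs of arrays. Both had the highest mean of 7 bile duct markers (7.71 each) and of 11 exocrine pancreas markers (8.36 and 8.34, median of the 19 arrays 5.08), so results that rest on this pair are given with and without it. On the array labelled 0.1 mg/kg replicate 1 Cyp1a1, a target of the aryl hydrocarbon receptor, read 14.06 against 7.19 to 8.42 on the other arrays of its group, so its dose label is in doubt. The mean of 12 skeletal muscle genes was 11.45 and 9.19 on vehicle replicates 1 and 5 and 9.68 and 9.38 on 50 mg/kg replicates 2 and 3 (median of the 19 arrays 5.24). By the submitters' array numbers 4 of the 5 arrays at 50 mg/kg are among the 7 early arrays (numbers up to 8), and each other group has 1 array there.

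Ccnd1 was lower at 50 mg/kg than in every other group on all 3 of its probe sets. The gene lies at chr1:209518288-209527986 (GRCr8, RefSeq). On probe set 1383075_at the vehicle arrays read 9.75, 10.24, 9.52, 9.18 and 9.33 in order of replicate, and the 50 mg/kg arrays read 7.96, 8.62, 8.46, 8.34 and 8.73. The 0.1 mg/kg arrays read 9.70, 10.25, 9.65, 9.92 and 9.85, and the 15 mg/kg arrays read 9.25, 9.36, 9.52 and 9.41. The highest array at 50 mg/kg (8.73) lay below the lowest of the 14 other arrays (9.18), so the top dose did not overlap any group. The vehicle range overlapped those of 0.1 and 15 mg/kg, which did not overlap each other and were not tested against each other. The difference in mean log2 signal was -1.18 against vehicle (SE 0.176, 95% interval -1.55 to -0.81, a 2.27-fold lower level) and -0.97 against 15 mg/kg (SE 0.186, interval -1.36 to -0.57, 1.95-fold lower). Each SE was estimated from all 4 dose groups together.

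The second probe set, 1371643_at, gave the same separation. Vehicle arrays read 9.33, 10.11, 9.45, 9.21 and 9.36, and 50 mg/kg arrays read 7.85, 8.72, 8.61, 8.29 and 8.50. The 4 arrays at 15 mg/kg were close together at 9.27, 9.38, 9.33 and 9.34, and the 0.1 mg/kg arrays read 9.41, 9.99, 9.39, 9.66 and 9.69. All 15 mg/kg arrays were thus within the vehicle range, and no 50 mg/kg array reached it. The difference at 50 mg/kg was -1.10 (SE 0.170, 2.14-fold lower) against vehicle and -0.94 (SE 0.181, 1.92-fold lower) against 15 mg/kg.

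The third probe set, 1371150_at, had the widest difference and the most uneven top dose group. Vehicle arrays read 7.69, 8.40, 7.56, 7.48 and 7.33, and 50 mg/kg arrays read 5.65, 6.62, 6.50, 6.68 and 6.70. The 15 mg/kg arrays read 7.65, 7.65, 7.37 and 7.64, and the 0.1 mg/kg arrays read 7.65, 8.45, 7.53, 7.87 and 7.77. Replicate 1 of 50 mg/kg was the lowest array on each of the 3 probe sets, and vehicle replicate 2 and 0.1 mg/kg replicate 2, the near-identical pair, were the highest. The difference was -1.26 (SE 0.219, 2.40-fold lower) against vehicle and -1.15 (SE 0.232, 2.21-fold lower) against 15 mg/kg.

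**Figure D1:**
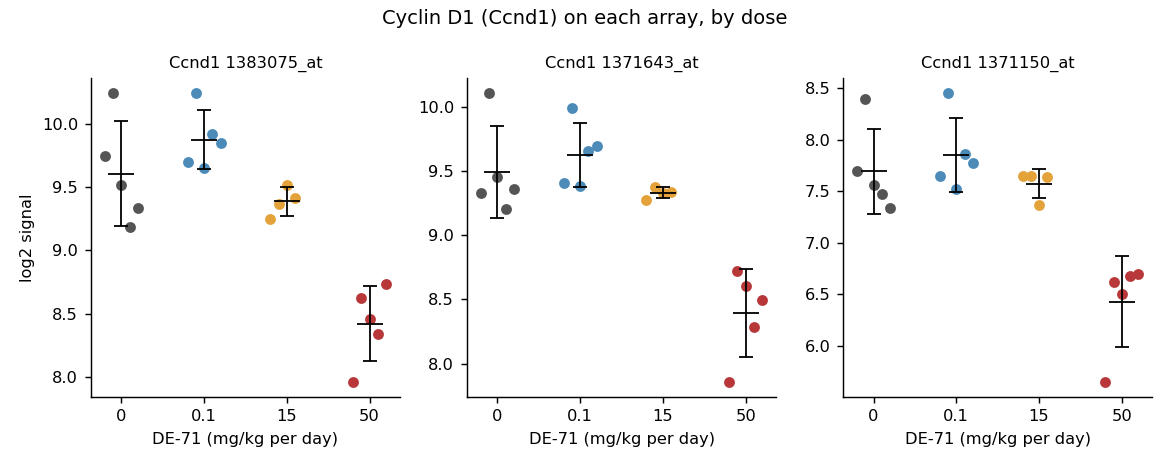
Log2 signal of the 3 Ccnd1 probe sets (panels) on each array by DE-71 dose in mg/kg per day, with doses evenly spaced. Points are arrays and bars are the mean and SD of 5, 5, 4 and 5 arrays; the 5 arrays at 50 mg/kg lie below all 14 others in each panel.

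Among all 31042 probe sets ordered from the most lowered at 50 mg/kg against vehicle, the Ccnd1 probe sets stood at places 25, 31 and 17. Limma's moderated test with Benjamini-Hochberg adjustment at 0.05 called 3 of the 12 member probe sets, the 3 of Ccnd1, and 1.61% of all probe sets. Arrays at 50 mg/kg lay wholly below the vehicle arrays in the same 3 member probe sets and in 1.48% of all. Since this contrast chose the members, nothing is read from these counts. Against 15 mg/kg limma called 0 of 31042 probe sets (0%), of which 2417 had an unadjusted p under 0.05, among them 5 member probe sets. Arrays at 50 mg/kg lay wholly below those at 15 mg/kg in 4 member probe sets, the 3 of Ccnd1 and Cdkn1a 1387391_at, and in 1.02% of all. That contrast also chose the members.

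Leaving out doubted arrays moved the size of the Ccnd1 difference. Its sign could not change, since every array at 50 mg/kg lay below the 14 others. Without vehicle replicate 2 and 0.1 mg/kg replicate 2, the differences at 50 mg/kg from vehicle were -1.02, -0.94 and -1.09 on 1383075_at, 1371643_at and 1371150_at. Among the early arrays, which hold 4 arrays at 50 mg/kg and 1 of vehicle, they were -1.41, -0.96 and -1.33. Among the late arrays, which hold 1 array at 50 mg/kg and 4 of vehicle, they were -0.84, -1.04 and -1.0. Each part has a group of 1 array and so no spread of its own. The sign in each part was fixed by the same separation, and nothing is read from it.

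Markers of other cells differed in some of the same arrays. The mean of the 7 bile duct markers was 5.60 to 6.13 at 50 mg/kg, 5.76 to 7.71 in vehicle and 5.70 to 7.42 at 15 mg/kg. The mean of 7 Kupffer cell markers was 9.72 to 10.11 at 50 mg/kg and 9.79 to 10.42 in vehicle, and that of 10 hepatocyte markers was 14.29 to 14.38 and 14.28 to 14.35. The mean of 11 exocrine pancreas genes was 4.91 to 5.08 at 50 mg/kg, 4.93 to 8.36 in vehicle, 5.08 to 8.34 at 0.1 mg/kg and 5.02 to 7.79 at 15 mg/kg. That of 12 skeletal muscle genes was 4.65 to 9.68 at 50 mg/kg, 4.58 to 11.45 in vehicle, 4.47 to 5.29 at 0.1 mg/kg and 4.92 to 7.89 at 15 mg/kg. The ranges at 50 mg/kg and in vehicle overlapped for each of these lists. With the muscle and pancreas means as covariates the Ccnd1 differences at 50 mg/kg from vehicle were -1.05, -0.96 and -1.07. The part of the other lists in the Ccnd1 difference was not tested.

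At 15 mg/kg no difference from vehicle was found in any Ccnd1 probe set. The choice of members compared the top dose with vehicle and with 15 mg/kg, and so used the arrays of both groups. The comparison of 15 mg/kg with vehicle is thus not independent of that choice, and its adjusted p-values for Ccnd1 are given as a description. The difference was -0.22 on 1383075_at (SE 0.186, 95% interval -0.61 to 0.17, adjusted p = 0.689), -0.16 on 1371643_at (interval -0.54 to 0.22, adjusted p = 0.764) and -0.12 on 1371150_at (interval -0.61 to 0.37, adjusted p = 0.868), all from limma. The intervals leave room for a fall of up to 0.61 on the log2 scale, and so do not show that 15 mg/kg and vehicle are alike. Without the near-identical pair the 3 differences were -0.06, -0.01 and 0.06. Limma called 0 of 31042 probe sets at 15 mg/kg (0%), and 3083 had an unadjusted p under 0.05, of which 1 was a member.

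At 0.1 mg/kg the Ccnd1 differences from vehicle were 0.27 (95% interval -0.10 to 0.64), 0.14 (interval -0.22 to 0.49) and 0.16 (interval -0.30 to 0.62), each with a limma adjusted p of 1.000. Without the near-identical pair they were 0.34, 0.20 and 0.19. These small differences moved by over 1.5 times with single arrays. On 1383075_at the difference was 0.16 without vehicle replicate 4, 0.18 without 0.1 mg/kg replicate 2 and 0.43 without vehicle replicate 2. The full range with 1 array left out was 0.04 to 0.29 on 1371643_at and 0.01 to 0.34 on 1371150_at, lowest without 0.1 mg/kg replicate 2 and highest without vehicle replicate 2. Limma called 0 of 31042 probe sets (0%), and 763 had an unadjusted p under 0.05, none of them a member. Cyclin D1 transcript was thus not detectably different from vehicle at 0.1 or 15 mg/kg.

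Genes of the aryl hydrocarbon receptor response separated 15 mg/kg from vehicle, where Ccnd1 did not. Cyp1a1 read 7.10, 7.57, 7.97, 7.43 and 8.36 in vehicle, 14.17, 13.34, 13.68 and 13.16 at 15 mg/kg, and 14.30, 14.11, 14.22, 14.13 and 14.24 at 50 mg/kg. The 15 mg/kg arrays thus lay close to the 50 mg/kg arrays in Cyp1a1, near the top of the signal range, while their Ccnd1 stayed among the vehicle values. For Cyp1a2 the 15 mg/kg arrays were more spread, at 14.08, 11.32, 12.35 and 10.66, with vehicle at 7.64 to 8.98 and 50 mg/kg at 13.65 to 14.33. In Cyp1a2, unlike Cyp1a1, 3 of the 4 arrays at 15 mg/kg were thus well below the 50 mg/kg arrays. For the quinone reductase Nqo1, which is induced by the aryl hydrocarbon receptor and by NRF2, vehicle arrays read 8.13, 8.55, 8.15, 8.16 and 8.12. Arrays at 15 mg/kg read 10.47, 10.00, 9.67 and 9.38, and those at 50 mg/kg read 12.04, 10.80, 11.46, 10.77 and 10.27. Nqo1 thus overlapped between 15 and 50 mg/kg, where Ccnd1 did not. The array labelled 0.1 mg/kg replicate 1 had Nqo1 at 10.64, Cyp1a1 at 14.06 and Ccnd1 at 9.70 on 1383075_at. Since its dose label is in doubt, nothing is read from it. Whether the receptor response has a part in the Ccnd1 difference was not tested.

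**Figure D2:**
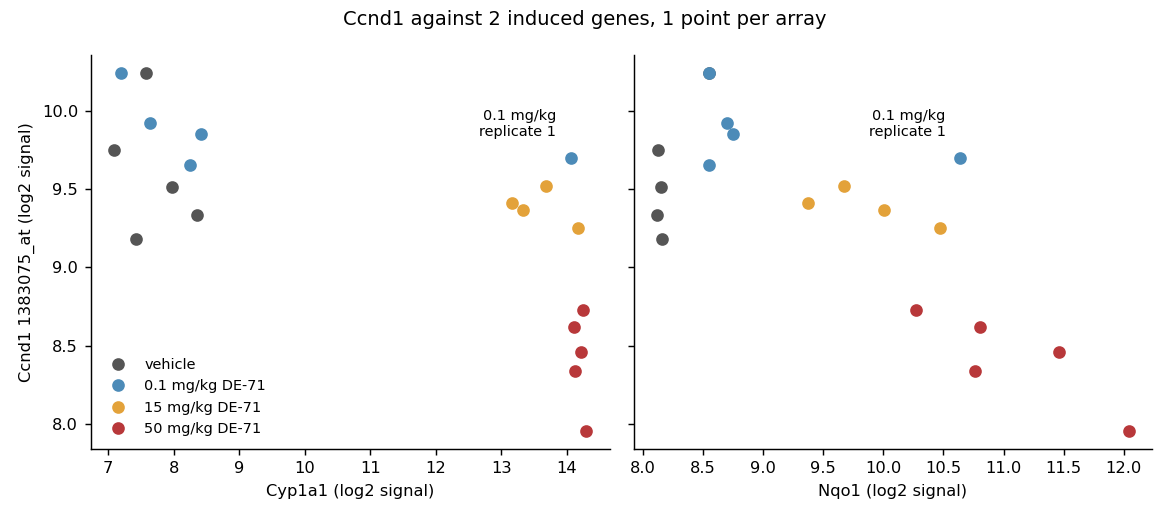
Log2 signal of Ccnd1 1383075_at (vertical) against that of Cyp1a1 (left) and Nqo1 (right), 1 point per array, coloured by dose; in the right panel vehicle replicate 2 is hidden behind 0.1 mg/kg replicate 2. The 15 mg/kg arrays and 0.1 mg/kg replicate 1 have Cyp1a1 between 13.16 and 14.17 with Ccnd1 between 9.25 and 9.70, and the 50 mg/kg arrays have Ccnd1 at or below 8.73.

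The 3 Ccnd1 probe sets moved together. Over the 19 arrays their log2 levels correlated with r between 0.961 and 0.974. Deviations from the dose group means, which leave out the dose differences, still correlated with r between 0.864 and 0.893. These are descriptions of 3 readings of 1 gene in the same RNA.

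Genes whose levels ran most like Ccnd1 1383075_at over the 19 arrays, among 14216 genes by Pearson correlation, were Tkfc (r = 0.857), Tsc22d1 (0.852), Ppargc1a (0.847), Pbx2 (0.843) and Id1 (0.836). The most opposite were Txnl1 (-0.901), Iars2 (-0.901), Pir (-0.894), Ugt2b34l1 (-0.882) and Tnfaip8l1 (-0.882). Ppargc1a, the coactivator PGC-1 alpha of mitochondrial and gluconeogenic genes, had means of 8.29 in vehicle, 8.44 at 0.1, 7.94 at 15 and 7.71 at 50 mg/kg. Id1, an inhibitor of helix-loop-helix transcription factors, had means of 9.06, 9.21, 8.97 and 8.52 in the same order. Within dose groups the list was a different one, led by Plcl1 (r = 0.894) and Ccdc50 (0.854) and, on the opposite side, by Ghsr (-0.880) and Tenm2 (-0.857). None of these 4 genes was among the 10 of the first ranking.

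The other D-type cyclins did not share the separation of Ccnd1. Ccnd2, at chr4:161653048-161675422, read 8.54, 8.62, 7.98, 8.10 and 7.98 in vehicle and 7.28, 7.81, 8.44, 8.17 and 7.83 at 50 mg/kg. Its arrays at 15 mg/kg (7.73 to 8.54) and 0.1 mg/kg (7.43 to 8.64) covered nearly the same range. The difference was -0.34 at 50 mg/kg against vehicle (95% interval -0.83 to 0.14) and -0.16 against 15 mg/kg. At 15 mg/kg against vehicle it was -0.18 (interval -0.69 to 0.34, limma adjusted p = 0.806), and all 4 groups overlapped. With the muscle and pancreas means as covariates the 50 mg/kg difference from vehicle was -0.10.

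Ccnd3, at chr9:20891696-20987199, had means below vehicle by similar amounts at 15 and 50 mg/kg, with overlap of the arrays. Among the late arrays the differences from vehicle were -0.40 at 15 and -0.70 at 50 mg/kg. Among the early arrays, with 1 of vehicle, they were -0.06 and -0.05. Vehicle arrays read 9.09, 9.39, 9.53, 9.71 and 9.52, those at 0.1 mg/kg 9.18, 9.43, 9.44, 9.32 and 9.12, those at 15 mg/kg 9.03, 8.97, 9.0 and 9.44, and those at 50 mg/kg 8.84, 8.73, 9.29, 9.29 and 8.84. Vehicle replicate 1 fell among the treated arrays, and 15 mg/kg replicate 5 among the vehicle arrays. The difference was -0.45 at 50 mg/kg (SE 0.135, 95% interval -0.73 to -0.17) and -0.11 at 50 against 15 mg/kg. At 15 mg/kg it was -0.34 (SE 0.143, interval -0.64 to -0.04), with an unadjusted p of 0.029 and a limma adjusted p of 0.459, so it did not pass.

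In Cdk4, the kinase partner of the D-type cyclins, no dose difference was found. The gene lies at chr7:64771453-64774891. Its promoter from 250 bases before to 50 after the start is shown because it holds 3 copies of CACGTG. That E-box is bound by MYC and other factors and is the same on both strands. No dose difference was found in Cdk4 or in Myc, though the intervals of both leave room for a shift. The window is chr7:64771203-64771502 (GRCr8, plus strand, RefSeq), with the E-boxes in capitals. A CACGTG is present in 6.42% of 33469 promoter windows of that length.
Cdk4: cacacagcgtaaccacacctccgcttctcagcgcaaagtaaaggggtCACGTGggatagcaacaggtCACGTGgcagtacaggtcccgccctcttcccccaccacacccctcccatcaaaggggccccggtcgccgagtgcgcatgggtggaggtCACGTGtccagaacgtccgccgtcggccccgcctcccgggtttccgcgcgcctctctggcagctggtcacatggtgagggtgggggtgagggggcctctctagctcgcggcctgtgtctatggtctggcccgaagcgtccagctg
Cdk4 read 10.60 to 11.09 in vehicle, 10.27 to 11.09 at 0.1 mg/kg, 10.47 to 10.80 at 15 mg/kg and 10.60 to 10.93 at 50 mg/kg. All 4 groups overlapped, with a difference of 0.01 at 50 mg/kg (95% interval -0.26 to 0.27) and of -0.07 at 15 mg/kg (interval -0.35 to 0.21, limma adjusted p = 0.869).

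Myc, at chr7:95483105-95488031, read 8.47, 8.33, 8.56, 9.25 and 8.76 in vehicle and 8.39, 8.78, 8.91, 9.05 and 8.75 at 50 mg/kg. Arrays at 15 mg/kg read 8.62, 8.80, 9.31 and 8.59, and those at 0.1 mg/kg ranged from 8.43 to 8.99. The groups overlapped throughout, and the highest single arrays were in vehicle and at 15 mg/kg. The difference was 0.10 at 50 mg/kg (95% interval -0.26 to 0.47), 0.16 at 15 mg/kg (interval -0.23 to 0.55, limma adjusted p = 0.773) and -0.05 at 50 against 15 mg/kg.

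Ccne1, cyclin E1, varied more between arrays of one dose than between doses. It lies at chr1:99918672-99927986. Its promoter window, chr1:99927860-99928159 (minus strand), is shown because it holds 2 copies of GCGTG, the core of the xenobiotic response element of the aryl hydrocarbon receptor. Both lie on the opposite strand and so read CACGC, in capitals. That core is present on either strand in 29.7% of the 33469 windows.
Ccne1: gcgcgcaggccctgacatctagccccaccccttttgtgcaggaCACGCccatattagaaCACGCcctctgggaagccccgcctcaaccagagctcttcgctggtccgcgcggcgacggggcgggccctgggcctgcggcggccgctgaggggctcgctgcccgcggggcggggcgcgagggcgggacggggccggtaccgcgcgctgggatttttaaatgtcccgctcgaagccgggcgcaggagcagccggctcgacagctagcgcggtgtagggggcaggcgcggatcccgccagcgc
Vehicle arrays read 7.13, 7.73, 8.19, 7.95 and 7.83, and 50 mg/kg arrays read 7.55, 7.06, 7.81, 8.38 and 7.43. Arrays at 15 mg/kg ranged from 7.61 to 8.0 and those at 0.1 mg/kg from 7.12 to 7.96. The lowest and the highest of the 19 arrays were both at 50 mg/kg, and the groups overlapped. The difference was -0.12 at 50 mg/kg (95% interval -0.59 to 0.35) and 0.04 at 15 mg/kg (interval -0.46 to 0.54, limma adjusted p = 0.956). At 50 mg/kg it was 0.57 among the early arrays and -0.50 among the late ones, each part with a group of 1 array.

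Of the 8 genes, 5 had an entry in the RefSeq promoter table (Ccnd3, Cdk4, Ccne1, Cdkn1a and Cdkn1b). The motifs TTTNNCGC (E2F, in 4.92% of all windows) and AGATAA (in 11.6%), which binds erythroid transcription factors of the GATA family, were searched on both strands too. AGATAA was found once, in the Cdkn1a window, and TTTNNCGC in none of the 5, and the Ccnd3 and Cdkn1b windows held none of the 4 motifs. A match is only the presence of these letters in a window.

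The inhibitors did not rise with dose. Cdkn1a, which encodes p21 and is induced by p53, lies at chr20:7150820-7161373. Its brighter probe set 1388674_at read 8.65, 8.13, 7.88, 8.09 and 7.76 in vehicle, 8.21, 7.94, 8.08 and 8.35 at 15 mg/kg, and 7.93, 8.31, 7.50, 7.76 and 7.32 at 50 mg/kg. The difference was -0.34 at 50 mg/kg (95% interval -0.72 to 0.05), -0.38 at 50 against 15 mg/kg and 0.04 at 15 mg/kg against vehicle (limma adjusted p = 0.946). Arrays overlapped in each comparison, with 50 mg/kg replicate 2 inside the vehicle range. The dim probe set 1387391_at, at percentile 30.1 of all probe sets, read 3.87 to 5.61 in vehicle, 4.35 to 6.00 at 0.1 mg/kg, 4.50 to 6.03 at 15 mg/kg and 3.87 to 4.41 at 50 mg/kg. Its top dose lay below 15 mg/kg (-0.83, interval -1.60 to -0.05) but overlapped vehicle (-0.59, and -0.39 without the near-identical pair). At 15 mg/kg against vehicle the difference was 0.24 (interval -0.54 to 1.01), which did not pass. With the muscle and pancreas means as covariates, 50 mg/kg differed by -0.51 from 15 mg/kg and by -0.12 from vehicle.

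Cdkn1b, which encodes p27, lies at chr4:169491273-169496500. On 1373812_at vehicle arrays read 10.70, 11.16, 11.21, 11.02 and 11.21, those at 0.1 mg/kg 10.65, 11.17, 11.10, 10.93 and 10.80, those at 15 mg/kg 10.57, 10.75, 10.83 and 10.70, and those at 50 mg/kg 10.68, 10.45, 11.09, 11.46 and 10.59. The 15 mg/kg arrays were the tightest group, with 2 of them inside the vehicle range and 2 below it, whereas 50 mg/kg held both the lowest and the highest array. The difference was -0.21 at 50 mg/kg (95% interval -0.54 to 0.13) and 0.14 at 50 against 15 mg/kg. At 15 mg/kg against vehicle it was -0.35 (SE 0.170, interval -0.70 to 0.01, limma adjusted p = 0.513). The 50 mg/kg difference from vehicle was 0.21 among the early arrays and -0.55 among the late ones, each part with a group of 1 array. The dim probe set 1369192_at, at percentile 27.0, read 4.15 to 4.90 over all arrays. It differed from vehicle by -0.21 at 50 mg/kg (interval -0.40 to -0.02) and by 0.07 at 15 mg/kg (limma adjusted p = 0.795). At 50 against 15 mg/kg its difference was -0.28 (interval -0.48 to -0.08), and the arrays overlapped in each comparison.

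**Figure D3:**
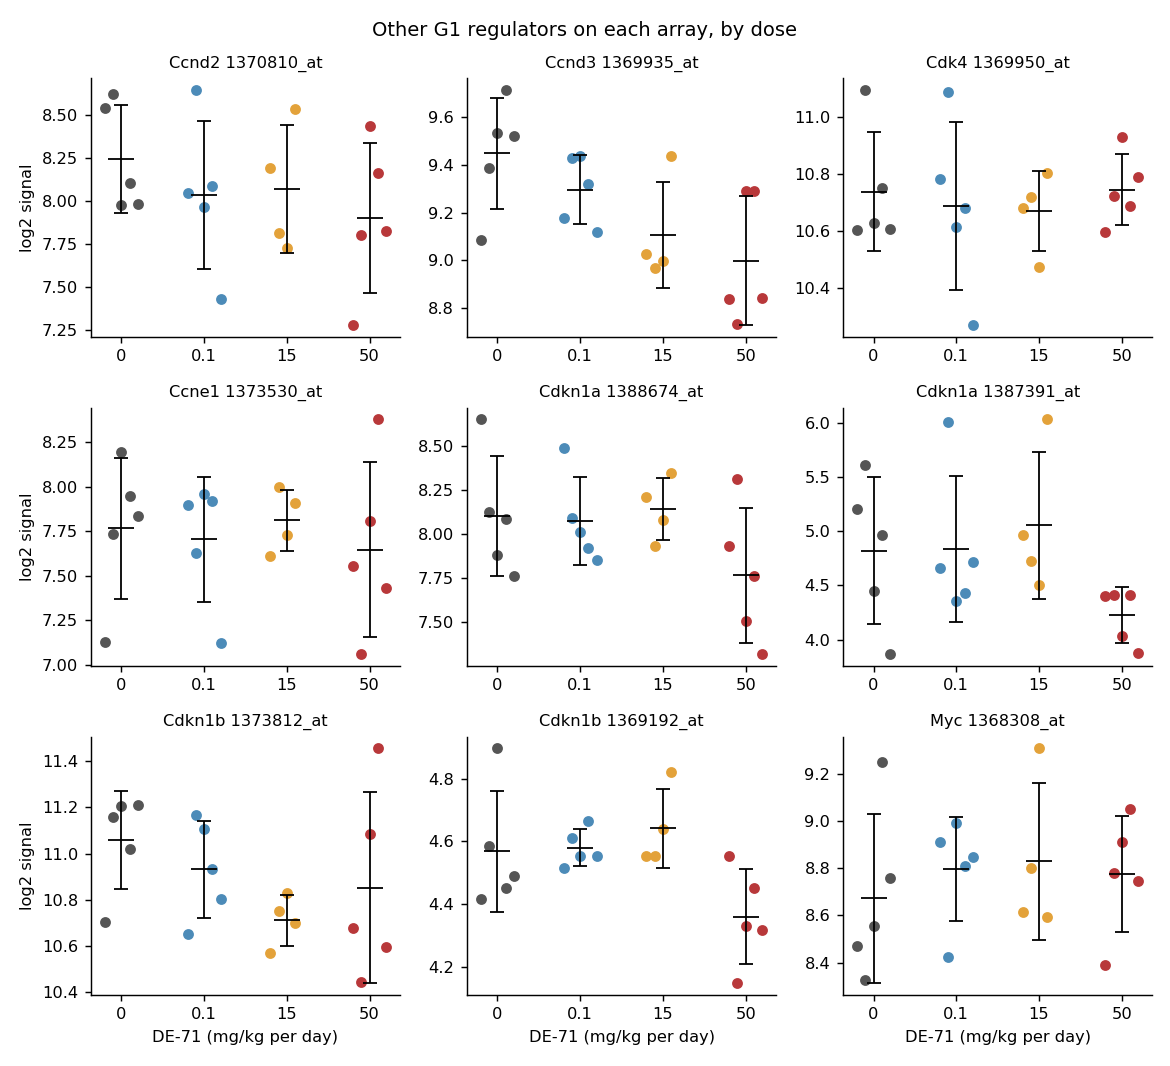
Log2 signal of the 9 member probe sets other than Ccnd1 (panels, each with its own vertical range) on each array by DE-71 dose in mg/kg per day, evenly spaced. Points are arrays and bars are the mean and SD of 5, 5, 4 and 5 arrays; each panel has overlap between vehicle and 50 mg/kg.

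Over the 12 member probe sets the median log2 difference from vehicle was -0.34 at 50 mg/kg, -0.09 at 15 mg/kg and -0.01 at 0.1 mg/kg, and it was -0.22 at 50 against 15 mg/kg. The median over all 31042 probe sets was 0.02, 0.02, 0.02 and 0.00 in the same order. Of the 12, 10, 7, 6 and 10 were below 0. The comparisons with vehicle share their vehicle arrays, and Ccnd1 contributes 3 of the 12.

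**Figure D4:**
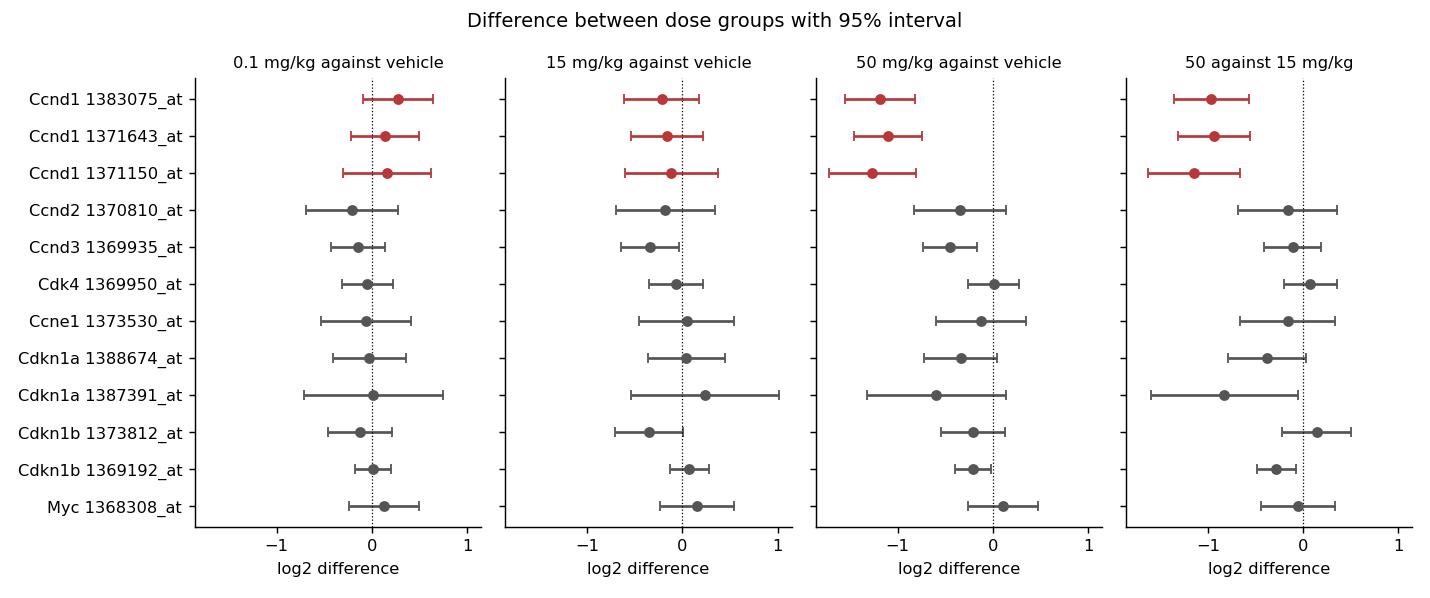
Log2 difference (points) with 95% interval from limma (bars) for the 12 member probe sets in 4 comparisons, with Ccnd1 in red and 0 dotted. The Ccnd1 points lie at -1.18, -1.10 and -1.26 for 50 mg/kg against vehicle, a contrast that chose the members, and at -0.22, -0.16 and -0.12 for 15 mg/kg.

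Part of the spread within dose groups ran with erythroid and neutrophil transcripts. The former mark red cell precursors, which the liver still holds around birth. The mean of 10 erythroid genes was 8.41 to 10.46 in vehicle, 9.30 to 10.15 at 0.1 mg/kg, 9.13 to 9.80 at 15 mg/kg and 8.45 to 10.58 at 50 mg/kg. The lowest erythroid arrays were vehicle replicate 1 (8.41) and 50 mg/kg replicate 2 (8.45), which also had the lowest Ccne1 of their groups (7.13 and 7.06). The highest was 50 mg/kg replicate 4 (10.58), which had the highest Ccne1 and Cdkn1b of all arrays (8.38 and 11.46).

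After the dose group means were taken off, 120 relations of the 12 member probe sets with 10 marker means were tested by permutation (100000 permutations, two-sided, n = 19 arrays, Benjamini-Hochberg over the 120). Ccne1 ran with the erythroid mean with r = 0.896 (p = 5e-05, adjusted p = 0.006) and rho = 0.819 (p = 4e-05, adjusted p = 0.0048). It had r = 0.839 without the 2 farthest arrays, 0.971 among the 7 early arrays and 0.796 among the 12 late ones, so the relation held in both parts.

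Ccnd3 gave r = 0.806 with the erythroid mean (p = 0.00012, adjusted p = 0.0072) and rho = 0.775 (p = 0.00044, adjusted p = 0.0228) in the same permutation test. It was 0.720 without the 2 farthest arrays, 0.919 among the early and 0.608 among the late arrays. Cdkn1b 1373812_at gave r = 0.795 (p = 0.00045, adjusted p = 0.0159), while rho = 0.712 did not pass after adjustment (p = 0.00354, adjusted p = 0.0607). Its r was 0.712 without the 2 farthest arrays, 0.890 among the early and 0.399 among the late arrays. The group means of the erythroid score were 9.85 in vehicle, 9.75 at 0.1, 9.54 at 15 and 9.58 at 50 mg/kg. The part of erythroid transcripts in the lower Ccnd3 means at 15 and 50 mg/kg was not tested.

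Neutrophil markers gave relations of similar size for Cdkn1b and Ccnd3. With the mean of 5 neutrophil genes Cdkn1b 1373812_at had r = 0.787 (permutation p = 0.00053, adjusted p = 0.0159) and rho = 0.830 (p = 0.00057, adjusted p = 0.0228), so both passed. It was 0.733 without the 2 farthest arrays, 0.832 among the early and 0.785 among the late arrays. Ccnd3 had r = 0.722 (permutation p = 0.00245, adjusted p = 0.0367), while rho = 0.719 did not pass (p = 0.00281, adjusted p = 0.0562). Its r was 0.626 without the 2 farthest arrays, 0.898 among the early and 0.50 among the late arrays. The neutrophil mean was 11.51 to 12.40 in vehicle, 11.55 to 12.33 at 0.1 mg/kg, 11.78 to 12.21 at 15 mg/kg and 11.38 to 12.20 at 50 mg/kg.

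Apart from Ccne1 with genes of S phase and mitosis, described below, the other relations that passed by r did not pass by rho. Ccnd2 and the dim Cdkn1a 1387391_at each had r = -0.682 with the mean of 8 endothelial genes (permutation adjusted p = 0.0423 and 0.0367). For rho, -0.695 and -0.628, adjusted p was 0.0562 and 0.0935. Among the early and late arrays r was -0.389 and -0.819 for Ccnd2, and 0.087 and -0.842 for Cdkn1a. With the pancreas mean Cdkn1a 1387391_at had r = 0.836, which did not pass (permutation adjusted p = 0.0558), and 0.701 without the near-identical pair. Cdk4 had r = 0.739 with the pancreas mean (adjusted p = 0.0248) and rho = 0.596 (adjusted p = 0.0986). It had r = 0.450 without the near-identical pair, on which this relation rests.

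Ccne1 also ran with the mean of 25 genes of S phase and mitosis (r = 0.822, permutation p = 0.00111, adjusted p = 0.0248, rho = 0.782, p = 0.00077, adjusted p = 0.0231). It was 0.810 without the 2 farthest arrays, 0.800 among the early and 0.878 among the late arrays. That mean was 8.69 to 9.35 in vehicle and 8.78 to 9.50 at 50 mg/kg, so the groups overlapped in it.

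For Ccnd1 the relation with the erythroid mean did not pass over all arrays and differed between the parts. On 1383075_at r was -0.37 (permutation p = 0.246, adjusted p = 0.477) and rho was -0.45 (p = 0.103, adjusted p = 0.342). The 3 probe sets had r of -0.70, -0.70 and -0.65 among the 12 late arrays, and of -0.43, -0.13 and 0.02 among the 7 early ones. On 1371643_at it ran with the bile duct mean at r = 0.662 (permutation p = 0.00423, adjusted p = 0.0508) and rho = 0.554 (p = 0.01118, adjusted p = 0.112). Without the 2 farthest arrays, which are the near-identical pair, r was 0.305, so its size over all arrays depends on that pair. Among the 7 early arrays, which hold neither of the pair, r was 0.660, and among the 12 late ones 0.744.

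**Figure D5:**
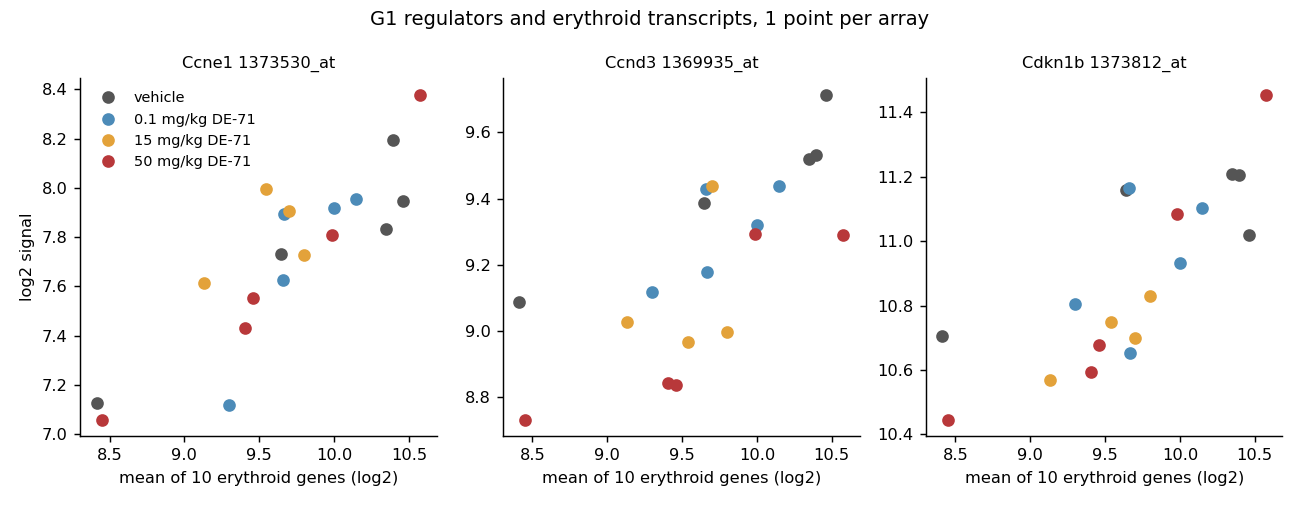
Log2 signal of Ccne1, Ccnd3 and Cdkn1b (panels) against the mean log2 signal of 10 erythroid genes, 1 point per array, coloured by dose. Arrays with erythroid means near 8.4 (vehicle replicate 1 and 50 mg/kg replicate 2) have the lowest Ccne1 of their groups, and 50 mg/kg replicate 4 has the highest Ccne1.

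Genes upstream and downstream of the members were read from 11 lists with 155 measured genes, each by its brightest probe set. At 50 mg/kg against vehicle limma called 2.23% of all 14217 genes. Without the 8 members, whose choice used this contrast, it called 5 of the other 147 list genes (3.40%), 2 higher and 3 lower. The lists too were chosen with earlier results of these data known. That share and the p-values of list genes at 50 mg/kg are therefore given as a description. At 15 mg/kg, at 0.1 mg/kg and at 50 against 15 mg/kg it called 0 of the 155, with 8, 4 and 11 genes at an unadjusted p under 0.05. The median log2 difference of the 155 at 50 mg/kg was -0.03.

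Downstream, no gene passed among 8 of cyclin E and CDK2, 12 of RB and E2F, or 25 of S phase and mitosis. Their medians at 50 mg/kg were -0.03, -0.10 and 0.08. The proliferation marker Mki67 differed by -0.06, the mitotic cyclin Ccnb1 by 0.32 and the survivin gene Birc5 by 0.35, and the E2F partner Tfdp2 by -0.49 (limma adjusted p = 0.919, 0.431, 0.401 and 0.387). The level of S phase and mitosis genes at 50 mg/kg thus overlapped vehicle where Ccnd1 did not. Among 8 CDK inhibitors none passed. The imprinted inhibitor Cdkn1c differed by -1.13 at 50 mg/kg (SE 0.665) and -0.82 at 15 mg/kg, with a wide spread (limma adjusted p = 0.431 and 0.692). Vehicle replicates 1 and 2 read 11.61 and 11.34, the other vehicle arrays 8.52 to 9.43, and the 50 mg/kg arrays 7.81 to 9.87. Both differences thus lean on those replicates, 1 rich in muscle transcripts and 1 of the near-identical pair.

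Upstream, 1 gene passed in each of 5 lists, while none of 12 genes of the MYC network did (median -0.16). Mxi1 of that network lay below all vehicle arrays at 50 mg/kg (-0.39, limma adjusted p = 0.115) and at 15 mg/kg (-0.51, limma adjusted p = 0.419). Of all probe sets 1.48% and 1.16% lay wholly below vehicle in those comparisons. Of 16 immediate early genes Ier2 fell, from 9.23, 8.80, 9.10, 8.82 and 9.0 in vehicle to 8.40, 8.23, 8.23, 8.07 and 8.42 at 50 mg/kg (-0.72, SE 0.116, limma adjusted p = 0.00441). A fit with a term for early or late array gave 0.0532. At 15 mg/kg Ier2 read 8.49, 8.71, 8.59 and 8.66, all below the vehicle arrays (-0.38, limma adjusted p = 0.428). Fos (1.09, SE 0.925) and Egr1 (-0.78, SE 0.351) did not pass.

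Of 16 YAP targets and angiomotins Amotl1, an angiomotin-like junction protein, fell by 1.23 on the log2 scale (SE 0.192, limma adjusted p = 0.00363). It read 10.21, 9.57, 9.21, 9.67 and 10.47 in vehicle, 8.61, 8.69, 8.82 and 9.02 at 15 mg/kg, and 8.35, 8.98, 8.51, 8.35 and 8.78 at 50 mg/kg. Unlike Ccnd1 it was already below all vehicle arrays at 15 mg/kg and overlapped between 15 and 50 mg/kg, though at 15 mg/kg it did not pass (-1.04, limma adjusted p = 0.191). Whether Amotl1 and Ccnd1 differ in their dose pattern was not tested.

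Of 20 genes of hepatocyte growth signalling Prlr, the prolactin receptor, fell by 1.20 (SE 0.272, limma adjusted p = 0.0342), a call made in 22 of 33 alternatives (adjusted p up to 0.19). The insulin receptor Insr (0.50), the HGF receptor Met (0.45) and Erbb3 (0.41) did not pass (limma adjusted p = 0.0911, 0.310 and 0.136). Of 15 genes of beta-catenin signalling Tcf7l1 rose by 0.34 (SE 0.0824, limma adjusted p = 0.0459), which passed in 8 of 33 alternatives. The beta-catenin target genes Axin2 (-0.34) and Lgr5 (-0.37) did not pass (limma adjusted p = 0.583 and 0.591). Of 15 p53 targets Ephx1 rose by 1.47 (SE 0.227, limma adjusted p = 0.00351), an epoxide hydrolase that is also induced by xenobiotics. Sesn2 of the same list read 8.87 to 9.46 in vehicle and 8.52 to 8.78 at 50 mg/kg, lower without overlap, but did not pass.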

How the data were processed

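The deposited values are log2 signals that, per the submitters' processing notes, the authors made with RMA (background correction, quantile normalization and summary per probe set; version not given in the sources used here). The submitters' R/maanova comparisons were not used here. Of 31099 probe sets 57 controls were left out, 20826 of the rest had 1 platform symbol, and each list gene was read from its brightest probe set. Array medians were 6.06 to 6.16. Limma 3.58.1 in R 4.3.3 fitted 1 mean per dose group over 19 arrays (15 residual degrees of freedom, 2.78 prior). Its moderated test was two-sided, and p-values were adjusted by Benjamini-Hochberg across the 31042 probe sets of a comparison, with 0.05 as the threshold. The number of arrays limits the precision. The fit was tested on simulated data. Permutations used numpy 2.4.6, with ranks from scipy 1.17.1.

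The members, lists and naming rule were chosen with earlier results of these data known. The rule named all member probe sets, list genes that passed in any comparison or differed most at 15 or 50 mg/kg, and the 5 genes most and least correlated with Ccnd1. Of 168 listed genes 155 were measured. Alternatives were other filters, variance priors, scalings, array weights, blocks and covariates, and arrays left out.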

Additional observations from a re-analysis of the deposited data

Results flagged for a closer look

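Of 48 sets of 4 or 5 arrays (12 member probe sets in 4 dose groups), 5 held an array whose gap to its nearest neighbour passed Dixon's limit, where chance gives about 1 in 20. On Ccnd1 1371643_at vehicle replicate 2, 1 of the near-identical pair, read 10.11 with the next array at 9.45. On Ccnd1 1371150_at 50 mg/kg replicate 1 read 5.65 with the next array at 6.50, and 15 mg/kg replicate 4 read 7.37 with the others at 7.64 to 7.65. On Ccnd3 15 mg/kg replicate 5 read 9.44 with the next array at 9.03. On Cdkn1a 1387391_at 0.1 mg/kg replicate 2, the other array of that pair, read 6.00 with the next at 4.71.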

How the results depend on the processing

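Over 33 alternatives limma called 2 to 4 of the 12 member probe sets at 50 mg/kg against vehicle (3 in each fit that left out 1 array) and none at 15 or 0.1 mg/kg. That contrast chose Ccnd1, so nothing is read from its calls. The Ccnd1 1383075_at difference was -1.29 to -0.92 (-1.29 to -1.02 with 1 array left out). With a block for early or late array 1371150_at was not called (-1.19), and all calls fell from 499 to 57 probe sets. With array weights Ccnd3 was called (-0.53) and all calls rose to 921. At 50 against 15 mg/kg 0 members were called, except that 2 were called without both near-identical arrays, a setting chosen after seeing the data. These were Ccnd1 1383075_at (-0.97) and 1371643_at (-0.94), whose differences did not move since neither array is in those groups. Only the estimate of the spread changed. No call changed direction. Replicate numbers did not pair the samples (27 pairs, r from -0.53 to 0.89, 11 over 0.1, 7 best with their own number). The replicate block gave 511 calls, with 3 members and -1.18 for Ccnd1. Groups of 4 or 5 arrays and log2 intervals near 0.2 to 0.8 on either side limit what can be seen at 15 and 0.1 mg/kg.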
